A study of Mus musculus with 21 samples.

Results

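The cytosolic large ribosomal subunit proteins were described here through the mRNA of their genes in the hippocampus of adult male mice after maternal separation. Members were chosen by name, as protein-coding genes called Rpl or Rplp with a number. A letter could follow, and then an l with or without a digit, as in Rpl36al and Rpl22l1. Rpl35a, Rpl7l1 and the pseudogenes were set aside, and at least 10 counts in 11 or more of the 21 libraries were asked for. Of the 55487 genes in the deposited counts, 50 had such a name and 47 passed the count minimum, and all 47 were among the 18146 genes tested. They lie on 17 chromosomes. The 3 genes under the minimum were Rpl10l with 0 counts in every library, Rpl39l with at most 2 counts and Rpl36al with 0 to 16 counts, which reached 10 counts in 5 libraries. Just inside it were Rpl3l, with 10 counts in 16 libraries, and Rpl24, with 10 counts in 19.

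Poly-A RNA was sequenced from C57BL/6 wild type males of 10 weeks, with 1 library per mouse, from 9 mice of the maternal separation group (MS) and 12 mice of the control group with standard rearing (SR). MS pups were taken from the dam for 4 hr a day from postnatal day 10 to day 17, in the light and the dark phase by turns, and per the study's methods most of the nesting material was also taken out of their home cages, so separation and scarce nesting cannot be told apart. Whole nests were given to 1 condition and the labels name no nest, so mice are called here by a letter for each run of 3 consecutive animal numbers (A, B and C for MS and D, E, F and G for SR). Mice of a set may be litter mates, and p-values over mice then measure a spread that is partly within nests.

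The MS library A2 stood apart, with 27.1 on the first principal component where the other 20 libraries lay between -12.2 and 11.9, with 0.692 CPM (counts scaled to the normalized total of the library) of the dentate gyrus gene Dsp where the others had 54.0 to 138, and with a sum of 2023 CPM over 8 striatum markers where the others had 86.6 to 700. It was left out here. The study also left out 1 outlier but does not name it, so that may be another library. It reports 9 MS and 12 SR mice, the same numbers as the libraries here, so its outlier may also lie outside these 21. With A2 left out, 8 MS mice were compared with 12 SR mice, except where all 21 libraries are mentioned. Total counts lay between 17276810 and 26450808 in these 20 libraries. The dentate gyrus markers summed to 169 to 353 CPM in MS and to 175 to 391.6 CPM in SR, and the CA pyramidal markers to 404 to 680 and 408 to 743 CPM, and no marker was at 0 throughout. In bulk tissue, fewer cells of a type and less RNA per cell cannot be told apart.

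The large subunit of the ribosome joins amino acids into protein and lets the growing chain out through its exit tunnel, while the small subunit reads the mRNA. Apart from the dimers of the P stalk, its proteins are present in equal numbers, and most of their mRNAs begin with a terminal oligopyrimidine (TOP) tract, a C followed by a run of C and T, through which their translation follows the activity of mTOR and the LARP1 protein. In neurons these mRNAs are also found in axons and dendrites, where local protein synthesis takes part in plasticity.

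The sequence around the annotated start of transcription was searched for runs of C and T, at any place near that start. Windows of 30 bases, 15 before the start and 15 from it on, were read from RefSeq for 35 of the 47 genes (build GRCm38.p6, on the strand of the gene), and 12 genes had no entry. The members printed are the 4 with the longest runs, the stalk gene Rplp2 and 3 genes without a run, and capitals mark every run of at least 7 bases that are each C or T.
Rpl7a, chr2:26910792-26910821 (+): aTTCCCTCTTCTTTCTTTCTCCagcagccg
Rpl27a, chr7:109519180-109519209 (+): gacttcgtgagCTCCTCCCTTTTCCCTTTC
Rpl34, chr3:130730323-130730352 (-): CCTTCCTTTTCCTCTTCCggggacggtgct
Rpl35, chr2:39005117-39005146 (-): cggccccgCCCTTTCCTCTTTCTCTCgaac
Rplp2, chr7:141447636-141447665 (+): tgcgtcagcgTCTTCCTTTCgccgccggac
Rpl10, chrX:74270801-74270830 (+): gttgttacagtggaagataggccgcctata
Rpl41, chr10:128549154-128549183 (-): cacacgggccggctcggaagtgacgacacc
Rplp0, chr5:115559452-115559481 (+): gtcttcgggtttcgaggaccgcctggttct
A run of this kind, searched on the gene's own strand, was present in 19 of the 35 members (54.3%), in 13 of 22 small subunit genes (59.1%) and in 21.3% of the 27025 genes with a window. The median log2 fold change of MS against SR was 0.13 for the 19 members with a run and 0.17 for the 16 without. An annotated start may lie away from the base where transcription begins in these cells, so a window without a run says only that the letters are not in it. A run was counted anywhere in the window, also before the start, as in Rpl34. The shares are therefore not shares of genes with a TOP tract.

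To ask whether the large subunit genes differ in level after maternal separation, MS was compared with SR by the quasi-likelihood test of edgeR with Benjamini-Hochberg adjustment over all genes tested. Every one of the 47 members had a log2 fold change above 0, where 50.3% of all genes did. No member passed the adjusted threshold of 0.05, which 2 of the 18146 genes (0.011%) passed. At an unadjusted p under 0.05, 27 of the 47 members (57.4%) were higher in MS, against 6.62% of all genes, and 0 were lower. The median log2 fold change of the members was 0.13, with a range from 0.0054 (Rpl17) to 0.48 (Rpl24), and that of all genes was 0.00084. The differences were small: a log2 fold change of 0.31, that of Rplp2, is a 1.24-fold difference. Rplp2 had a mean of 49.0 CPM (SD 4.47) in SR and of 60.7 CPM (SD 8.82) in MS. The biological coefficient of variation between mice was 13.3%, a value for the whole fit and not for Rplp2 or the members. The MS median lay above the SR median in 45 of the 47 members and above the highest SR mouse in 19, and in no member were all MS mice above all SR mice. These counts were not set beside the same counts over all genes tested, so they only describe the members.

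**Figure D1:**
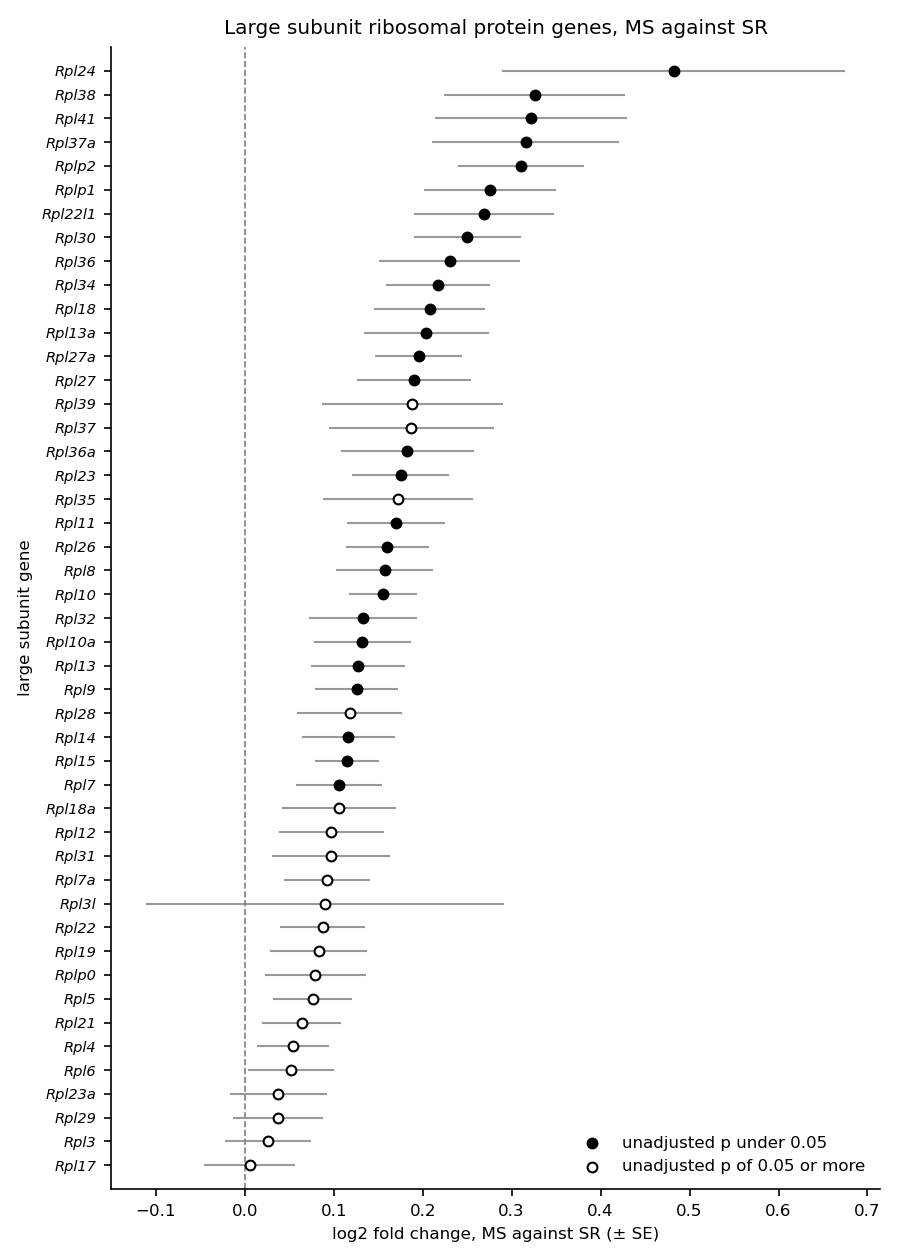
Log2 fold change of MS against SR (x axis, with bars of 1 SE) for each of the 47 large subunit genes (y axis), ordered by size; filled points have an unadjusted p under 0.05. All 47 points lie above 0, from 0.0054 for Rpl17 to 0.48 for Rpl24, which has the fewest counts after Rpl3l and a wide bar.

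The members' share of all counts was 0.447% to 0.635% in MS (median 0.517%) and 0.444% to 0.504% in SR (median 0.471%). CPM per kilobase of transcript allows for the length of a gene's transcript, but not for reads that the gene shares with copies. On this scale the most abundant members were Rplp1 with 327 CPM per kilobase, Rpl3 with 276 and Rpl13 with 253. The least abundant were Rpl3l with 0.406, Rpl24 with 1.02 and Rpl39 with 14.8. Rpl24 overlaps another annotated gene, Gm28037, on the same strand, and Gm28037 had 0 counts in every library; the part of this overlap in the low count of Rpl24 was not tested. Such an overlap also holds for Rpl13, Rpl13a and Rpl19.

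The P stalk is the flexible arm of the large subunit that draws in the elongation factors. Rplp0 is its base, Rplp1 and Rplp2 bind to it as acidic dimers, and Rpl12 sits at the foot of the arm. The 3 P proteins end in nearly the same residues, which contact the elongation factors, and the last 42 bases of their coding sequences, stop codon included, are shown for this reason, with the bases that all 3 genes share in capitals.
Rplp0: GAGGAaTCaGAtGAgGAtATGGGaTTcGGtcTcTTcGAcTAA
Rplp1: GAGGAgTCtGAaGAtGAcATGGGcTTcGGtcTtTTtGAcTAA
Rplp2: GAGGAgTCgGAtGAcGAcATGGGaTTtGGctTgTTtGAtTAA
They share 30 of the 42 bases. Rplp2 (ENSMUSG00000025508, chr7:141447370-141451585) had the smallest p of all members. It lay between 43.8 and 59.1 CPM in SR (median 47.9) and between 44.3 and 72.6 CPM in MS (median 60.4), with 7 of 8 MS mice above the SR median and 4 above the highest SR mouse. Its log2 fold change was 0.31 with a 95% interval of 0.17 to 0.45 (edgeR adjusted p = 0.111). Rplp1 (ENSMUSG00000007892, chr9:61913284-61914542) lay between 129 and 181 CPM in SR (median 149) and between 132 and 222 CPM in MS (median 183), again with 7 of 8 MS mice above the SR median. The log2 fold change of Rplp1 was 0.28 ± 0.07 (SE, edgeR adjusted p = 0.161). The base and the foot of the stalk differed less. Rplp0 lay between 159 and 181 CPM in SR (median 166) and between 155 and 238 CPM in MS (median 173), with a log2 fold change of 0.08 (unadjusted p = 0.177 in edgeR's fit across all genes), and its highest value was that of mouse C1. Rpl12 had a log2 fold change of 0.10 (unadjusted p = 0.115 in the same fit). The differences between the stalk genes' fold changes were not tested.

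Rpl5 and Rpl11 carry the 5S ribosomal RNA into the subunit and, when free, bind Mdm2, the inhibitor of p53. Rpl11 (ENSMUSG00000059291) lay between 80.1 and 93.3 CPM in SR (median 86.7) and between 76.6 and 121 CPM in MS (median 99.3). All MS mice but 1 were above the SR median, and the log2 fold change was 0.17 ± 0.05 (SE, edgeR adjusted p = 0.231). Rpl5 lay between 151 and 166 CPM in SR (median 159) and between 156 and 211 CPM in MS (median 161), so the groups' medians were close and the highest MS mouse, C1, was far above the rest. Its log2 fold change was 0.08 ± 0.04 (SE, unadjusted p = 0.0968 in edgeR's fit across all genes).

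At the face that meets the small subunit, Rpl10 is built in last and is needed for the subunits to join. Rpl23, Rpl24 and Rpl41 form bridges to the small subunit. These 4 are the genes listed here, chosen with earlier results known, and other members may also touch the small subunit. All 4 were higher at an unadjusted p under 0.05, where 57.4% of the members and 6.62% of all genes were. Their median log2 fold change was 0.25, which does not describe the whole face. Rpl10 (ENSMUSG00000008682, chrX:74270812-74273135) lay between 120 and 138 CPM in SR (median 129) and between 133 and 166 CPM in MS (median 142), and all 8 MS mice were above the SR median. Its log2 fold change was 0.16 with a 95% interval of 0.08 to 0.23 (edgeR adjusted p = 0.134). Rpl23 lay between 63.1 and 82.7 CPM in SR (median 71.4) and between 68.1 and 89.9 CPM in MS (median 83.2), with a log2 fold change of 0.18 ± 0.05 (SE, edgeR adjusted p = 0.214).

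Rpl41 encodes the shortest protein of the ribosome, with 25 residues, and its whole coding sequence of 78 bases is short enough to print.
Rpl41: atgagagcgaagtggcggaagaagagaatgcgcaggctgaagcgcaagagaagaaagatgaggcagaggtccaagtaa
Rpl41 (ENSMUSG00000093674, chr10:128548114-128549305) lay between 41.4 and 55.7 CPM in SR (median 45.3) and between 33.3 and 75.7 CPM in MS (median 59.4). Of the 8 MS mice, 6 were above the highest SR mouse and C3 was below the lowest. The log2 fold change was 0.32 ± 0.11 (SE, edgeR adjusted p = 0.254). Rpl24 had 9 to 27 counts per library and lay between 0.423 and 0.992 CPM in SR and between 0.561 and 1.21 CPM in MS, so its log2 fold change of 0.48 has a wide 95% interval, from 0.10 to 0.86.

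Of the 9 proteins along the exit tunnel and around its opening, only Rpl26 had an unadjusted p under 0.05, and the median log2 fold change was 0.09. Rpl26 lay between 106 and 126 CPM in SR (median 116) and between 113 and 157 CPM in MS (median 127), with a log2 fold change of 0.16 ± 0.05 (SE, edgeR adjusted p = 0.189). Rpl4 and Rpl17 reach into the tunnel and form its narrow part. Rpl4 lay between 327 and 374 CPM in SR (median 344) and between 329 and 425 CPM in MS (median 354), with a log2 fold change of 0.05 ± 0.04 (SE). Rpl17 had the smallest difference of all members. It lay between 120 and 142 CPM in SR (median 133) and between 118 and 167 CPM in MS (median 130), with a log2 fold change of 0.0054 and a 95% interval of -0.09 to 0.10. Rpl23a, at the opening, where chaperones and the signal recognition particle dock, had 61.5 to 73.4 CPM in SR (median 65.8) and 58.0 to 85.7 CPM in MS (median 66.2), with a log2 fold change of 0.04 and a 95% interval of -0.07 to 0.14. The other 5, Rpl19, Rpl22, Rpl31, Rpl35 and Rpl39, had log2 fold changes from 0.08 to 0.19.

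For 5 members the genome holds a paralog of like function. Rpl22l1, which can take the place of Rpl22, lay between 10.2 and 14.6 CPM in SR (median 12.2) and between 10.9 and 17.7 CPM in MS (median 14.5), with 7 of 8 MS mice above the SR median. Its log2 fold change was 0.27 ± 0.08 (SE, edgeR adjusted p = 0.189), and that of Rpl22, with 57.6 to 70.1 CPM in SR and 58.9 to 79.2 CPM in MS, was 0.09 ± 0.05 (SE, edgeR adjusted p = 0.500). Per kilobase of transcript, Rpl22l1 had 23.9 CPM and Rpl22 had 31.9 CPM over all mice compared. Nearly identical sequence in other genes covers 71.6% of the Rpl22l1 transcript and 0% of that of Rpl22, so these levels may not compare directly. Rpl3, which takes part in shaping the peptidyl transferase centre, had 334 to 391 CPM in SR (median 373) and 333 to 478 CPM in MS (median 366), with a log2 fold change of 0.03 ± 0.05 (SE). Its muscle paralog Rpl3l, with 7 to 29 counts per library, had 0.323 to 0.826 CPM in SR and 0.359 to 0.822 CPM in MS, and the 95% interval of its log2 fold change, -0.30 to 0.48, is too wide to show a difference of the members' size. Rpl36a had 22.4 to 29.8 CPM in SR (median 25.4) and 19.0 to 33.4 CPM in MS (median 30.5), with a log2 fold change of 0.18 ± 0.08 (SE), and its paralog Rpl36al was under the count minimum. Rpl36al overlaps the annotated gene Gm49383 on the same strand. Nearly identical sequence in other genes, which may include Gm49383 itself, covers 66.7% of the Rpl36al transcript. The part of either in the low count of Rpl36al was not tested. Rpl39 had 6.58 to 11.0 CPM in SR (median 8.28) and 6.08 to 11.0 CPM in MS (median 10.3). Its paralog Rpl39l and the paralog of Rpl10, Rpl10l, are genes of the male germ line and had almost no counts here.

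Outside these groups, Rpl30, Rpl27a and Rpl34, all core proteins of the subunit, were among the 6 members with the smallest p. Rpl30 (ENSMUSG00000058600, chr15:34440505-34443640) lay between 39.0 and 51.5 CPM in SR (median 44.3) and between 41.5 and 62.0 CPM in MS (median 54.2), and 6 of 8 MS mice were above the highest SR mouse. The log2 fold change was 0.25 ± 0.06 (SE, edgeR adjusted p = 0.131). Rpl27a lay between 97.3 and 119 CPM in SR (median 107) and between 104 and 146 CPM in MS (median 121), with a log2 fold change of 0.20 ± 0.05 (SE, edgeR adjusted p = 0.134) and 6 of 8 MS mice above the highest SR mouse. Rpl34 lay between 37.6 and 49.4 CPM in SR (median 42.5) and between 42.6 and 55.0 CPM in MS (median 50.6). All 8 MS mice were above the SR median of Rpl34, and its log2 fold change was 0.22 ± 0.06 (SE, edgeR adjusted p = 0.159). Rpl38, known for its part in the translation of Hox mRNAs, and Rpl37a were chosen after their values were seen and had log2 fold changes of 0.33 and 0.32. They belong to the 19 members that the rule for named genes left aside, whose log2 fold changes ran from 0.05 (Rpl6) to 0.33 (Rpl38) with a median of 0.13, and 13 of these 19 had an unadjusted p under 0.05. Among the lowest, Rpl29 had 111 to 130 CPM in SR (median 120) and 106 to 154 CPM in MS (median 123), with a log2 fold change of 0.04 ± 0.05 (SE). Rpl13 had a log2 fold change of 0.13 ± 0.05 (SE, edgeR adjusted p = 0.354).

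**Figure D2:**
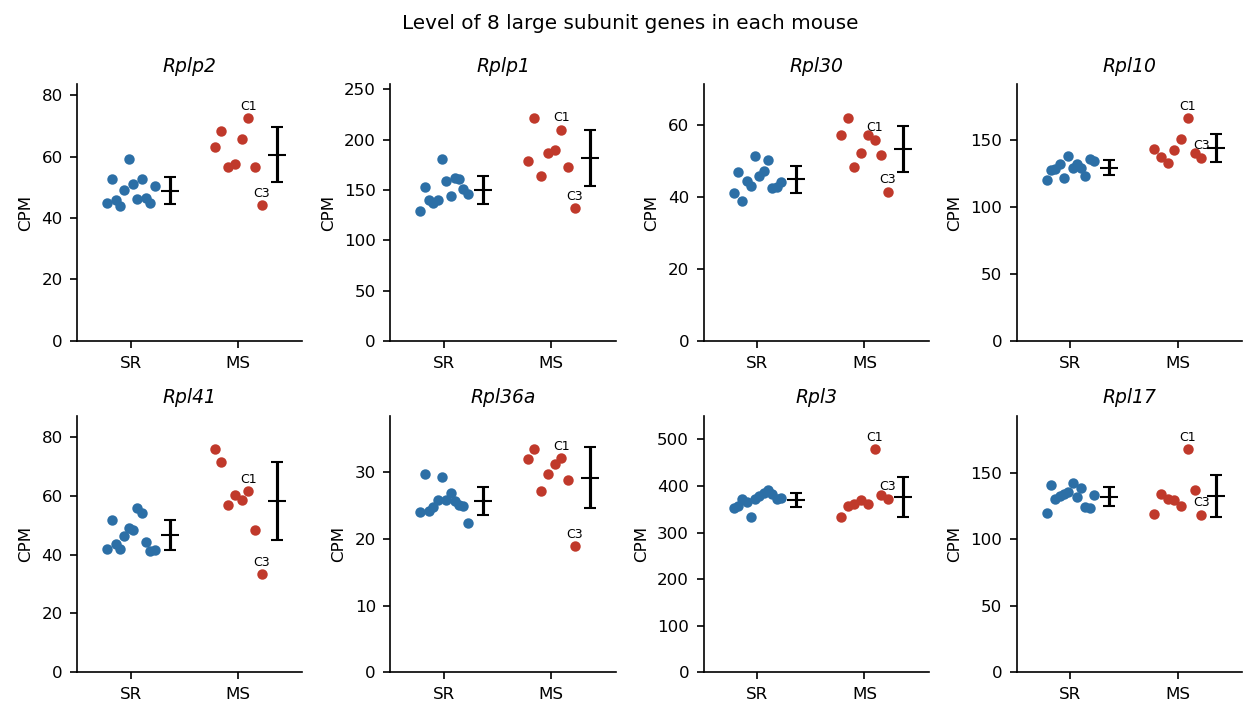
CPM (y axis, from 0) of 8 large subunit genes in each SR mouse (blue, 12) and MS mouse (red, 8), with the mean and 1 SD as a black cross and bar; mice C1 and C3 are marked. C1 stands above the other MS mice in Rpl3 (478 CPM) and Rpl17 (167 CPM), and C3 lies below every SR mouse in Rpl41 (33.3 CPM) and Rpl36a (19.0 CPM).

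The members' mean differed between mice, and 2 MS mice of set C stood at opposite ends. The mean over the 47 members of log2 CPM relative to the SR mean was 0.40 in C1, 0.24 in A3, 0.18 in A1, 0.18 in B3, 0.14 in B2, 0.12 in C2, 0.06 in B1 and -0.14 in C3. In the SR mice this mean lay between -0.096 (D1) and 0.14 (E3), so E3 reached the level of B2 and C3 was lower than all SR mice. C1 was the highest MS mouse in 32 of the 47 members, and C3 the lowest in 38. In C1, 46 members were above the SR mean, and in C3 only 7 were. The means over the mice of a set were 0.21 in A (2 mice), 0.13 in B and 0.13 in C, against -0.04 in D, 0.03 in E, 0.05 in F and -0.04 in G, so all MS sets were above all SR sets, while the SD within set C was 0.27. With A2 included, so that all 21 libraries were compared, 30 members had an unadjusted p under 0.05 and the median log2 fold change was 0.15. The share of all genes at that level was not computed with A2 included.

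The calls depended on set C. Without C3, 11 members passed the adjusted threshold, all higher in MS, among them Rplp1, Rplp2, Rpl11, Rpl30, Rpl36a and Rpl41, where 0.596% of all genes passed. Without C2, Rplp2 alone passed, where 0.597% of all genes did. Without the whole of set C, 15 members passed, all higher in MS, where 1.83% of all genes did, and 41 of the 47 members stayed above 0. Without C1 no member passed, where 3 of 18247 genes did, and the members' median log2 fold change was 0.11. The study used DESeq2 too, but adjusted its p-values by independent hypothesis weighting, which was not done here. With its own adjustment, DESeq2 gave adjusted p-values for 45 members and called 5, all higher in MS. They were Rplp2 (DESeq2 adjusted p = 0.0160), Rpl10 (0.0281), Rpl30 (0.0281), Rpl27a (0.0342) and Rplp1 (0.0442). By the same test 0.775% of all genes passed.

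The animal numbers fall into 2 ranges, and what separates them is not stated in the labels. The first holds 5 MS mice (sets A and B) and 9 SR mice (D, E and F), the second 3 MS mice (set C) and 3 SR mice (set G). Within the first range alone, 7 members passed the adjusted threshold, where 1.25% of all genes did, and 42 of the 47 had a log2 fold change above 0, with a median of 0.14. Within the second range alone no member passed, and all 47 were above 0, with a median of 0.18. There, 2 members (4.26%) had an unadjusted p under 0.05, a share close to the 4.52% of all genes. The difference between the ranges, tested as an interaction in edgeR, passed the adjusted threshold for 0 genes. At an unadjusted p under 0.05 stood 1573 genes (8.67%) and 3 members (6.38%), a share no larger than that of all genes. The 3 are given as values only. For Rpl17, with -0.07 in the first range and 0.16 in the second, the difference was 0.22, for Rpl29, with -0.03 and 0.19, it was 0.22, and for Rpl22l1, with 0.38 and 0.04, it was -0.34 (edgeR adjusted p = 0.555, 0.555 and 0.564).

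The size of the difference went with the length of the transcript. Across the 47 members, the log2 fold change and the log2 of the length of the principal transcript had a Spearman rho of -0.59 and a Pearson r of -0.54, as a description over genes that were measured in the same libraries. The 15 shortest transcripts (383 to 679 bases) had a median log2 fold change of 0.22 with 13 of 15 at an unadjusted p under 0.05, the 16 of middle length (733 to 1047 bases) 0.14 with 10, and the 16 longest (1049 to 2051 bases) 0.09 with 4. Rpl41, Rpl36a and Rplp1 are among the shortest, and Rpl3, Rpl4, Rpl5, Rpl22 and Rplp0 among the longest, while Rplp2 (964 bases) and Rpl23a (560 bases) lie off this order. Protein-coding genes that encode no ribosomal protein showed the same order within these limits of length: their median log2 fold changes were 0.14, 0.08 and 0.04, and -0.01 for transcripts longer than any member, and 31.5%, 16.3%, 11.1% and 4.83% of them were higher at an unadjusted p under 0.05. Within each class the members' median was above that of the other genes, by a difference that was not tested.

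**Figure D3:**
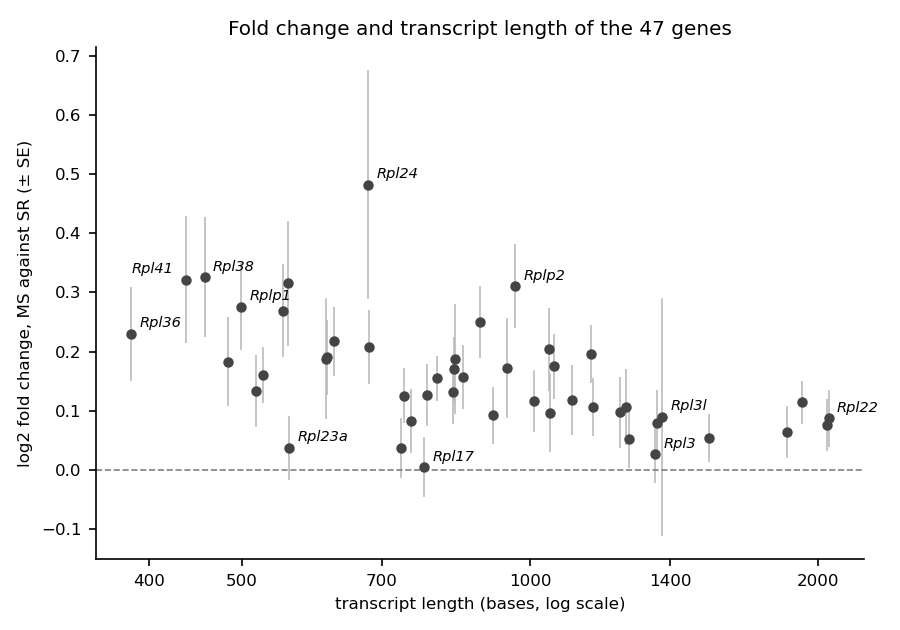
Log2 fold change of MS against SR (y axis, bars of 1 SE) against the length of the principal transcript in bases (x axis, log scale) for the 47 large subunit genes. The 15 shortest have a median of 0.22 and the 16 longest one of 0.09.

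In single mice the 3 length classes of the members differed in some of the MS mice. In A1 the class of the shortest transcripts had a mean of 0.33 above SR and that of the longest 0.08, in A3 0.37 and 0.13, in B2 0.26 and 0.05, and in B3 0.31 and 0.08. In B1 they had 0.12 and 0.02, and in C2 0.13 and 0.12, gaps within the range of the SR mice. In C1 both were high, with 0.45 and 0.32, and in C3 both were low, with -0.22 and -0.08. The gap of the shortest above the longest class was 0.13 in C1 and -0.15 in C3, both outside the range of the SR mice. The largest gap of the shortest above the longest class in an SR mouse was 0.11, in F2, and in G2 the gap was -0.11. The slope of log2 CPM on log2 length over the other genes tested, a measure of each library computed without any ribosomal protein gene, was lowest in C1 (-0.066 per doubling of length) and highest in C3 (0.045), and the SR mice lay between -0.020 and 0.019. With this slope as a term in the edgeR fit, the members' median log2 fold change was 0.09 and 43 of the 47 were above 0. Of the members, 22 were higher at an unadjusted p under 0.05, and the share of all genes in this fit was not computed. The adjusted threshold was passed by 0 members and by 2 of 18146 genes. Rplp2 then had 0.24 (edgeR adjusted p = 0.124), Rpl27a 0.14 (0.124) and Rpl30 0.19 (0.140), and Rpl17, Rpl23a, Rpl29 and Rpl3 were below 0.

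**Figure D4:**
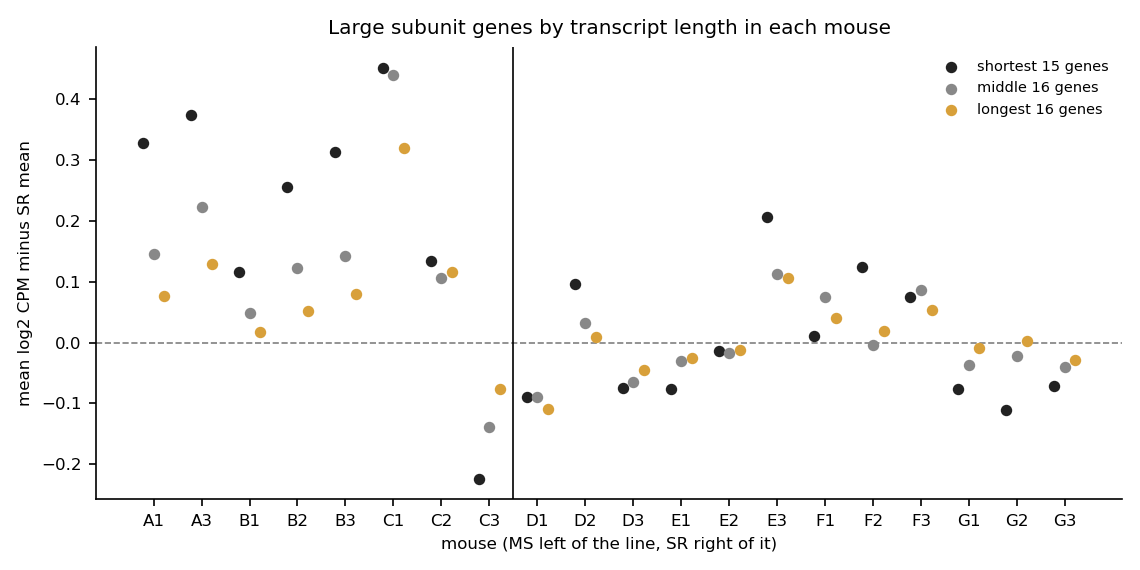
Mean log2 CPM relative to the SR mean (y axis) of the 15 shortest, 16 middle and 16 longest of the 47 genes by transcript length, for each of the 8 MS and 12 SR mice (x axis). The shortest class is highest in C1, at 0.45, and in A3, at 0.37, and lowest in C3, at -0.22.

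Most members have copies in the genome that can share reads with them. By BLAST of the principal transcripts, 42 of the 47 had another gene of at least 98% identity over at least 150 bases. In 27 such copies covered more than 50% of the transcript, up to 99.4% in Rplp1 and 97.9% in Rpl36. Overlapping genes were not set aside, so in the 4 members that overlap another gene on the same strand, that gene may be among the copies. Rpl3l, Rpl4, Rpl8, Rpl22 and Rpl32 had none, and their log2 fold changes were 0.09, 0.05, 0.16, 0.09 and 0.13. The introns of 20 members hold snoRNA genes, 5 of them in Rpl4. How reads that map to several places were counted is not given in the sources used here, so values of members with close copies are uncertain to that extent. Of 180 large subunit pseudogenes by symbol, 32 had enough counts to test, of which 27 had a log2 fold change above 0 and 3 an unadjusted p under 0.05, with a median of 0.10.

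The other genes of protein synthesis were read in the same way. Of the large subunit genes outside the rule, Rpl35a had a log2 fold change of 0.27 ± 0.07 (SE, edgeR adjusted p = 0.161) and Rpl7l1 one of 0.04 ± 0.04 (SE). All 32 small subunit genes had a log2 fold change above 0, with a median of 0.15, and 21 had an unadjusted p under 0.05, and the difference between the subunits was not tested. Of the 48 mitochondrial large subunit genes tested, 41 were above 0, 6 had an unadjusted p under 0.05 and the median was 0.04. Translation factors with a TOP mRNA had a median of 0.04, with 14 of 17 above 0 and 5 at an unadjusted p under 0.05. Factors that assemble the large subunit in the nucleolus had a median of -0.01, with 20 of 42 above 0, 1 higher and 4 lower at an unadjusted p under 0.05. RNA polymerase I, which makes the large ribosomal RNAs, had a median of 0.03 over 14 genes with 1 of them higher at an unadjusted p under 0.05, and the regulators of TOP mRNAs, such as the genes of the mTOR complex, had a median of -0.03 over 12 genes with 1 lower. In none of these lists did a gene pass the adjusted threshold.

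Markers of neighbouring tissue varied widely between mice. All 10 choroid plexus markers had a log2 fold change above 0 with a median of 0.90, none at an unadjusted p under 0.05, and their sum ranged from 55.3 to 4278 CPM in MS and from 31.1 to 4625 CPM in SR. With a choroid plexus score as a term, the members' median was 0.15 and 25 had an unadjusted p under 0.05. The share of all genes at that level was not computed for this fit. All 8 striatum markers were above 0 with a median of 0.47, none at an unadjusted p under 0.05, with sums of 86.6 to 700 CPM in MS and 92.2 to 437 CPM in SR, and their part in the members' difference was not tested. The median log2 fold changes of the microglia, endothelium, oligodendrocyte and astrocyte markers were 0.07, 0.03, 0.01 and 0.02, and that of the red blood cell markers 0.25, with no marker of these lists at an unadjusted p under 0.05. Mitochondrially encoded mRNAs took 3.66% to 5.02% of the counts in MS and 4.49% to 4.97% in SR.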

How the data were processed

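Per the submitters' notes, the authors used STAR 2.7.3a for alignment to GRCm38 and featureCounts for counting, and the deposited values are raw counts per Ensembl gene and library, neither normalized nor filtered. The setting for strand and for reads with several alignments is not given in the sources used here. Columns that belong to no sample numbered 0. Counts were filtered by filterByExpr (minimum 10), normalized by TMM and tested by edgeR 4.0.16 (quasi-likelihood, robust) in R 4.3.3, and alternatives used DESeq2 1.42.0 and limma 3.58.1. SE was taken from the log2 fold change and edgeR's F statistic (their quotient, with F under the root), and 95% intervals are 1.96 SE either way. Log2 CPM used a prior count of 2. Positions, symbols and transcript lengths are those of GENCODE M21 (55227 of 55487 genes matched). Copies were found by BLAST 2.17.0+. The script's recovery of known changes was tested on simulated data.

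The members and lists were chosen with earlier results of these data known. Genes named are those of the role and paralog lists, the 6 members of smallest p, the 3 of lowest fold change and the 3 of highest and of lowest level per kilobase. Each library and each set was left out in turn, and the alternatives of the closing section were run. Of the large subunit genes outside the naming rule, 1 is not reported here.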

Additional observations from a re-analysis of the deposited data

Results flagged for a closer look

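For 29 values of the members, the highest and the lowest of the 8 MS mice were compared with the nearest of the others, and in 10 the gap was a larger part of the group's range than Dixon's 95% limit allows. Chance alone does this in about 1 in 20 groups, and the members share their libraries, so the 10 are not separate events. Mouse C1 was the high one in 7 genes: Rpl3 with 478 CPM, Rpl13 with 267 CPM, Rplp0 with 238 CPM, Rpl5 with 211 CPM, Rpl19 with 173 CPM, Rpl17 with 167 CPM and Rpl29 with 154 CPM. Mouse C3 was the low one in 3 genes, Rpl31 with 49.2 CPM, Rpl36a with 19.0 CPM and Rpl39 with 6.08 CPM. The 7 genes in which C1 stood out had log2 fold changes from 0.01 to 0.13 over all MS mice.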

How the results depend on the processing

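No member passed the adjusted threshold in edgeR over the mice compared, nor under 10 of the 12 other settings. DESeq2's Wald test called 5 and edgeR in the first range of animal numbers alone called 7, and in the second range alone, with 3 mice a group, 2 of 47 members (4.26%) had an unadjusted p under 0.05, as did 4.52% of all genes. When each library and each set was left out in turn, the count of called members ranged from 0 to 15 (set C). The count at an unadjusted p under 0.05 ranged from 19 (without set G) to 35 (without C3). The shares of all genes at that level were not computed for these fits. The members' median log2 fold change ranged from 0.11 (without C1) to 0.17 (without C3). Of 334 values of the 28 named members under the 12 settings, 314 kept their direction and their side of the threshold, 10 became called and 10 turned sign, all of these in the 4 members closest to 0. Rpl17 was at -0.0031 with no filter on low counts, -0.045 with the transcript length slope as a term, -0.0012 with the set as a random block in limma-voom and -0.070 in the first range. Rpl23a was at -0.025 with the length slope and -0.025 in the first range, Rpl29 at -0.019 and -0.032, and Rpl3 at -0.011 and -0.044. Leaving out libraries or sets moved Rpl17 between -0.051 and 0.032, Rpl23a between -0.016 and 0.085, Rpl29 between -0.016 and 0.063, Rpl3 between -0.053 and 0.065, and Rpl3l, which has few counts, between -0.020 and 0.25. The cause of these turns was not tested. Rpl24 and Rpl3l had no value when at least 10 counts were asked of every library. No paired analysis was possible because the labels give no replicate numbers that both groups share.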
